A study of Homo sapiens with 8 samples.

Results

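The genes described here are 37 immediate early, cytokine and feedback genes whose mRNAs are short-lived and often carry AU-rich elements, and they were chosen by name from the annotation of the array. All 37 were on the array, measured by 47 of its 50599 probes. They are the AP-1 transcription factors FOS, FOSB, FOSL1, FOSL2, JUN, JUNB and JUND, the transcription factors EGR1, EGR2, EGR3, KLF4, KLF6 and NR4A1, the response proteins IER2, IER3 and IER5 with the kinase PIM1, the brakes on ERK signaling DUSP1, DUSP4, DUSP5, DUSP6, SPRY2 and SPRY4, the secreted factors CCL2, IL6, IL8, IL11, CXCL1, CXCL2, LIF, TNF, HBEGF and CTGF, the NF-kB inhibitors NFKBIA and TNFAIP3, and the enzymes PTGS2 and PLAU. The current symbols of IL8 and CTGF are CXCL8 and CCN2.

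RNA came from FT293 cells, HEK293-derived human embryonic kidney cells in which a transgene at an Flp-In site is switched on by tetracycline. The study compared 4 such lines, which expressed GFP alone, GFP-HuR, GFP-TIA1 or GFP-TIAR and are called here GFP-, HuR-, TIA1- and TIAR-expressing cells. Every line received tetracycline for 3 days, so that the GFP line is the control for induction and for the tag, and cells without tetracycline were not analysed here. Each line was measured on 2 one-colour arrays labelled as biological replicates, and all 8 arrays lay on 1 slide. The second TIA1 array is labelled GFP-TIA2 in its source name and GFP-TIA1 in its title and genotype, and its Pearson's r with the first TIA1 array, across probes, was 0.994.

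Immediate early genes are transcribed within minutes of a growth factor, stress or cytokine signal, mostly through ERK and SRF or through NF-kB, and their mRNAs are removed quickly. Many carry AU-rich elements in the 3′ untranslated region, in which the pentamer AUUUA is the recurring unit. HuR, the product of ELAVL1, binds such elements and is best known for stabilizing the mRNA, whereas TIA1 and TIAR, the product of TIAL1, bind U-rich and AU-rich sequences and are best known there for repressing translation, as first described for the TNF mRNA. An array measures the amount of RNA only, so that a change in translation would not be seen here, and in a bulk sample fewer cells of a type and less RNA per cell cannot be told apart.

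A 60-base probe covers a small stretch of its mRNA, and 5 of the 47 probes of these genes (10.6%), each of a different gene, contain the pentamer, against 7.8% of all 50599 probes. Whether these single pentamers act as AU-rich elements was not tested. The 29-base stretches below show the pentamer in capitals, in the sense orientation of the array design, with T written for U.
PTGS2: tgagatATTTAaggttgaatgtttgtcct
HBEGF: ccatctgtagtaATTTAttgtctgtctac
IER3: aggtctcttggtATTTAttgagctttgtg
NR4A1: tctgattaatatATTTAatatattgaata
IL8: tcttataatattATTTAaatgactgcatt
On the array's genome build, hg19 (GRCh37), they lie at chr1:186641500-186641528 on the minus strand for PTGS2, at chr5:139713082-139713110 on the minus strand for HBEGF, at chr6:30711315-30711343 on the minus strand for IER3, at chr12:52453237-52453265 on the plus strand for NR4A1 and at chr4:74609270-74609298 on the plus strand for IL8. Only the probed bases were searched, so a gene without a match here may carry the element elsewhere in its mRNA.

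Promoters were searched for the sites through which these genes are usually induced, from 250 bases before to 50 bases after the RefSeq start (GRCh38.p14), and 30 of the 37 genes had an entry. The stretches below belong to genes that differed between the lines, read 5′ to 3′ on the strand of the gene, with the motif in capitals and 10 bases on each side.
EGR1, CArG box of SRF: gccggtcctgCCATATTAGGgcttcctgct
IL11, TRE of AP-1: gcagggagggTGAGTCAggatgtgtca
JUND, CRE of CREB and ATF proteins: gccgcccccaTGACGTCAacccacaagg
DUSP1, CRE: gcagggcgggTGACGTCAccgccccgtc
CXCL1, kappa B site: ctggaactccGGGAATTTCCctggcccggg
CXCL2, kappa B site: ctggagctccGGGAATTTCCctggcccggg
These are at chr5:138465364-138465393 (plus strand) for EGR1, chr19:55370543-55370569 (minus) for IL11, chr19:18281805-18281832 (minus) for JUND, chr5:172771303-172771330 (minus) for DUSP1, chr4:73869304-73869333 (plus) for CXCL1 and chr4:74099254-74099283 (minus) for CXCL2. EGR1 has a second CArG box, and in CXCL1 and CXCL2 a second kappa B match overlaps the printed one. On either strand, the TRE (TGANTCA) was found in 3 of the 30 promoters and in 7.76% of all 27305, the CRE (TGACGTCA) in 2 and 1.98%, the CArG box in 1 and 1.29%, the kappa B site in 6 and 5.72%, and the TATA box (TATAAA) in 9 and 12%. The kappa B promoters were those of CTGF, CXCL1, CXCL2, IL6, NFKBIA and TNFAIP3, none of which passed the calls against HuR described next. CCL2 and LIF, which did pass them, had no entry, so their promoters were not searched. A match describes the letters of this window only.

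Signals are given as log2 of the processed intensity minus the 75th percentile of the same array, so that a level of 0 equals the 75th percentile and a difference of 1 is 2-fold. A level can be compared between lines for the same probe, and not between probes. For a gene with several probes the brightest over the 8 arrays was used. A gene was called higher or lower where limma gave a Benjamini-Hochberg adjusted p under 0.05, adjusted over all tested probes, and a change of at least 2-fold. A probe was tested only if the scanner software marked it as well above background on 2 of 2 arrays in either line of the pair. Where neither array of a line had such a mark, the fold change is given as a lower bound. It is taken against the dimmest marked probe of each array of that line, or the probe's own signal if brighter. Some unmarked probes were brighter than the dimmest marked one, so the bound is approximate. The number of arrays, 2 a line, limits the precision of all values.

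Of the 37 genes, 30 had a probe well above background on all 8 arrays, and CCL2, EGR3, IL6, IL11 and PTGS2 on some of them. IL8 and NR4A1 were not well above background on any array, with processed intensities of 22.2 or lower for IL8 and 7.34 or lower for NR4A1. Between 31 and 35 of the genes were well above background on each array. GFP 1 stood apart from the other arrays, with 86.0% of all probes well above background against 53.2% to 58.5%. The replicate arrays of the GFP line differed at least 2-fold for 4 of the genes (EGR2, EGR3, FOSL2 and TNF), and those of the other lines for 0. The median size of the log2 difference between replicates was 0.341 for GFP, 0.121 for HuR, 0.135 for TIA1 and 0.174 for TIAR. The brighter probe of TIAL1 read 4.87 and 4.98 on the TIAR arrays and 1.63 to 2.52 on the others, and its dimmer probe -4.12 and -3.85 on the TIAR arrays and -4.36 to -3.45 on the others, whereas neither the TIA1 nor the ELAVL1 probes were highest in the line named for them, and whether those probes lie within the transgenes was not settled. Of 8 genes that mark HEK293 cells, 7 arrays had 8 well above background and GFP 2 had 7.

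In TIA1- versus HuR-expressing cells, 4 of the 34 tested genes were called higher (CCL2, IL11, LIF and JUND, 11.8%, against 10.2% of all genes tested) and 2 lower (PTGS2 and SPRY4, 5.88%, against 5.79%). In TIAR- versus HuR-expressing cells, 4 of 35 were called higher (CCL2, IL11, LIF and PIM1, 11.4%, against 8.62%) and 2 lower (PTGS2 and SPRY2, 5.71%, against 3.66%). The shares of called genes were therefore close to those of the array as a whole. The median log2 fold change was 0.13 and 0.16 for these genes and 0.08 and 0.05 over all tested probes, for TIA1 and TIAR respectively. Both comparisons use the same HuR arrays, and the TIAR calls rest on them, since limma called 0 of all genes without HuR 1, with 12 of the 35 tested at an unadjusted p under 0.05 (against 33% of all genes), and 3 of the 35 without HuR 2 (against 2.63%).

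**Figure D1:**
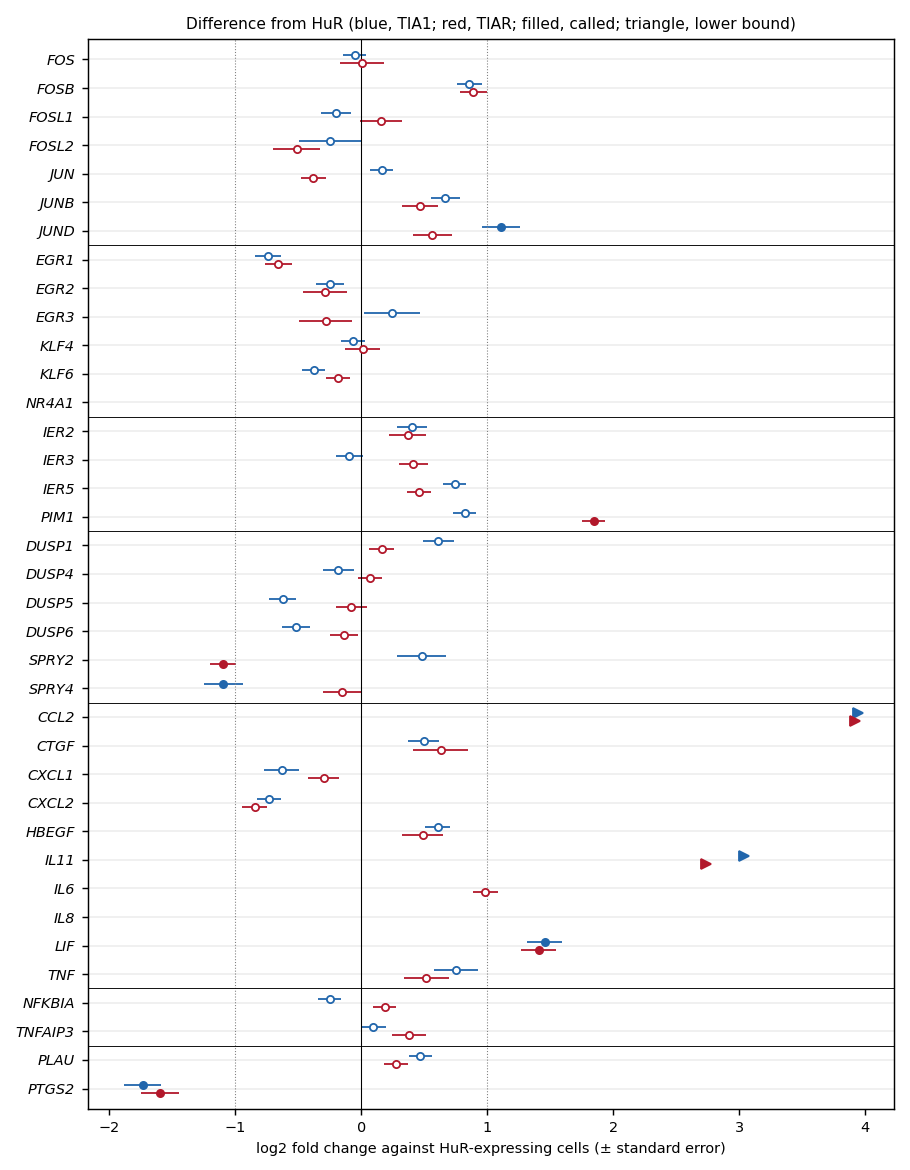
Log2 fold change of each tested gene between TIA1- (blue) or TIAR- (red) and HuR-expressing cells, with the standard error from limma, grouped by role from the AP-1 factors at the top to the enzymes at the bottom. Filled symbols passed both thresholds, triangles are lower bounds for CCL2 and IL11, whose probes fell short of that mark with HuR, and dotted lines mark 2-fold. CCL2, IL11 and LIF lie to the right in both comparisons and PTGS2 to the left, and PIM1 and SPRY2 are filled for TIAR only and JUND and SPRY4 for TIA1 only.

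At an adjusted p under 0.05 and any size of change, 13 of 34 genes were higher with TIA1 than with HuR (against 24.2% of all genes, taking the brightest probe of each) and 8 were lower (against 17.3%). For TIAR, 7 of 35 were higher (against 18.7%) and 4 lower (against 12.2%). Of the genes past the p threshold, 15 of 21 with TIA1 and 5 of 11 with TIAR differed by less than 2-fold. Those past the p threshold but under 2-fold were, with TIA1, CTGF, DUSP1, FOSB, HBEGF, IER5, JUNB, PIM1, PLAU and TNF among the higher and CXCL1, CXCL2, DUSP5, DUSP6, EGR1 and KLF6 among the lower. With TIAR they were FOSB, IER5 and IL6 among the higher and CXCL2 and EGR1 among the lower.

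Among the cytokines, chemokines and growth factors, 3 of the 8 tested were called higher with TIA1 (against 10.2% of all genes). With TIAR the count was 3 of the 9 tested (against 8.62%). In both comparisons these were CCL2, IL11 and LIF, already counted above. CCL2 and IL11 were tested only because they were well above background on the TIA arrays, so these counts are a description. Among probes well above background on all arrays of both lines, only LIF of this group was still called. Of this group 0 were called lower (against 5.79% and 3.66%), and the median log2 fold change against HuR was 0.68 and 0.63. CCL2 encodes the chemokine that attracts monocytes. Its probe (chromosome 17 from 32584050 to 32584109) read -2.0 and -2.16 in TIA1-expressing cells and -2.11 and -2.10 in TIAR-expressing cells. In HuR-expressing cells it read -6.53 and -6.80, not well above background on either array, and in GFP-expressing cells -4.79 and -5.04. In processed intensity these values were 270 to 324 on the 4 TIA arrays, 40.7 and 58.8 on the GFP arrays and 14.9 and 16.9 on the HuR arrays. The TIA1 and TIAR arrays were thus both high, the GFP arrays low and the HuR arrays at background, without overlap between these 3 levels. CCL2 entered the tests against HuR through the TIA arrays alone. It was called higher with TIA1 and TIAR (adjusted p = 0.0018 and 0.0030 of the fitted change, limma), with lower bounds of 15.4-fold and 15.1-fold. These bounds hold for the processed signals only, since the log2 fold changes of CCL2 were 2.40 and 2.32 with normexp background correction and 2.02 and 1.90 with the authors' log2 values, both smaller than the bounds and both called.

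IL11 and LIF belong to the cytokine family that signals through the shared receptor subunit gp130. The IL11 probe (chromosome 19 from 55875788 to 55875847) read -2.99 and -2.84 with TIA1, -3.30 and -3.13 with TIAR, -5.97 and -5.98 with HuR, and -5.53 and -6.39 with GFP. Both TIA lines were high and the HuR and GFP lines low, where only GFP 1 was well above background. Like CCL2, IL11 entered the tests against HuR through the TIA arrays alone. It was called higher with TIA1 and TIAR (adjusted p = 0.0018 and 0.0036 of the fitted change, limma), with lower bounds of 8.21-fold and 6.67-fold. The LIF probe (chromosome 22 from 30636713 to 30636772), measured on all arrays, read -0.92 and -1.13 with TIA1, -1.17 and -0.98 with TIAR, -2.37 and -2.59 with HuR, and -2.37 and -1.64 with GFP. All 4 TIA arrays lay above all 4 others for LIF, and its log2 fold change against HuR was 1.46 with TIA1 (standard error 0.14, adjusted p = 0.0045, limma) and 1.41 with TIAR (standard error 0.14, adjusted p = 0.0074, limma). The second LIF probe was well above background on GFP 1 only and was not tested. The IL11 bounds hold for the processed signals only, since its log2 fold changes with TIA1 and TIAR were 1.70 and 1.41 with normexp background correction and 1.36 and 0.99 with the authors' log2 values, where the TIAR call was lost. With those values LIF was not called in either comparison.

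IL6, another gp130 cytokine, was well above background on both TIAR arrays, on HuR 2 and on GFP 1. The brighter of its probes (chromosome 7 from 22771207 to 22771266) read -5.02 and -4.91 with TIAR, -5.73 and -5.54 with TIA1, -5.96 and -5.94 with HuR, and -4.57 and -5.41 with GFP. TIAR exceeded HuR by a log2 difference of 0.98 (standard error 0.10, adjusted p = 0.0080, limma), just under 2-fold. TNF, the founding cytokine of the AU-rich element field, read -4.34 and -4.44 with TIA1, -4.69 and -4.56 with TIAR, -4.92 and -5.35 with HuR, and -2.26 and -4.57 with GFP, so that GFP 1 stood alone above the other 7 arrays. The difference from HuR was 0.75 with TIA1 (standard error 0.17, adjusted p = 0.032, limma) and 0.51 with TIAR (standard error 0.18, adjusted p = 0.098, limma).

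The chemokines CXCL1 and CXCL2, which attract neutrophils, moved the other way from CCL2. CXCL2 (chromosome 4 from 74962985 to 74963044) read -2.42 and -2.44 with TIA1, -2.53 and -2.56 with TIAR, and -1.75 and -1.65 with HuR, and was thus lower on every TIA array than on the HuR arrays, by 0.73 (standard error 0.10, adjusted p = 0.0085, limma) and 0.85 (standard error 0.10, adjusted p = 0.010, limma), under 2-fold. The second CXCL2 probe gave -0.53 and -0.42 (adjusted p = 0.085 and 0.19, limma), neither past the threshold. CXCL1 (chromosome 4 from 74736850 to 74736909) read -4.15 and -3.84 with TIA1, -3.79 and -3.54 with TIAR, -3.38 and -3.35 with HuR, and -2.54 and -2.57 with GFP. The TIA1 difference from HuR was -0.63 (standard error 0.14, adjusted p = 0.027, limma) and the TIAR difference -0.30 (standard error 0.13, adjusted p = 0.14, limma), and the second CXCL1 probe gave -0.36 and 0.15, neither past the threshold. CXCL1 and CXCL2 are close relatives in sequence, and how far their probes read each other's mRNA was not tested.

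HBEGF, a ligand of the EGF receptor, and CTGF, a matricellular target of YAP and SRF, differed less. HBEGF (chromosome 5 from 139713052 to 139713111) read -0.35 and -0.46 with TIA1, -0.72 and -0.33 with TIAR, -1.06 and -0.97 with HuR, and -1.66 and -1.99 with GFP. CTGF read -2.55 and -2.65 with TIA1, -2.20 and -2.73 with TIAR, -3.21 and -2.99 with HuR, and -3.34 and -3.72 with GFP. In both genes every TIA array lay above every HuR array, with log2 fold changes of 0.61 and 0.49 for HBEGF (adjusted p = 0.014 and 0.091, limma) and 0.50 and 0.63 for CTGF (adjusted p = 0.036 and 0.098, limma).

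Among the 2 enzymes, PTGS2, which makes prostaglandins (cyclooxygenase-2), was the gene that stood out in HuR-expressing cells. Its probe (chromosome 1 from 186641469 to 186641528), which carries the first of the printed pentamers, read -3.98 and -4.19 with HuR, against -5.69 and -5.95 with TIA1, -5.54 and -5.83 with TIAR, and -5.64 and -5.86 with GFP. Both HuR arrays were well above background, at intensities of 99.2 and 91.4, whereas the GFP arrays were not and each TIA line was on 1 of its 2 arrays. With TIA1, PTGS2 fell by 1.74 against HuR (standard error 0.15, adjusted p = 0.0037, limma) and by 1.60 with TIAR (standard error 0.15, adjusted p = 0.0073, limma). These calls were lost with normexp background correction and with the authors' log2 values. PLAU, the urokinase protease, was higher with TIA1 than with HuR by 0.47 (standard error 0.09, adjusted p = 0.021, limma) and with TIAR by 0.27 (adjusted p = 0.099, limma).

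**Figure D2:**
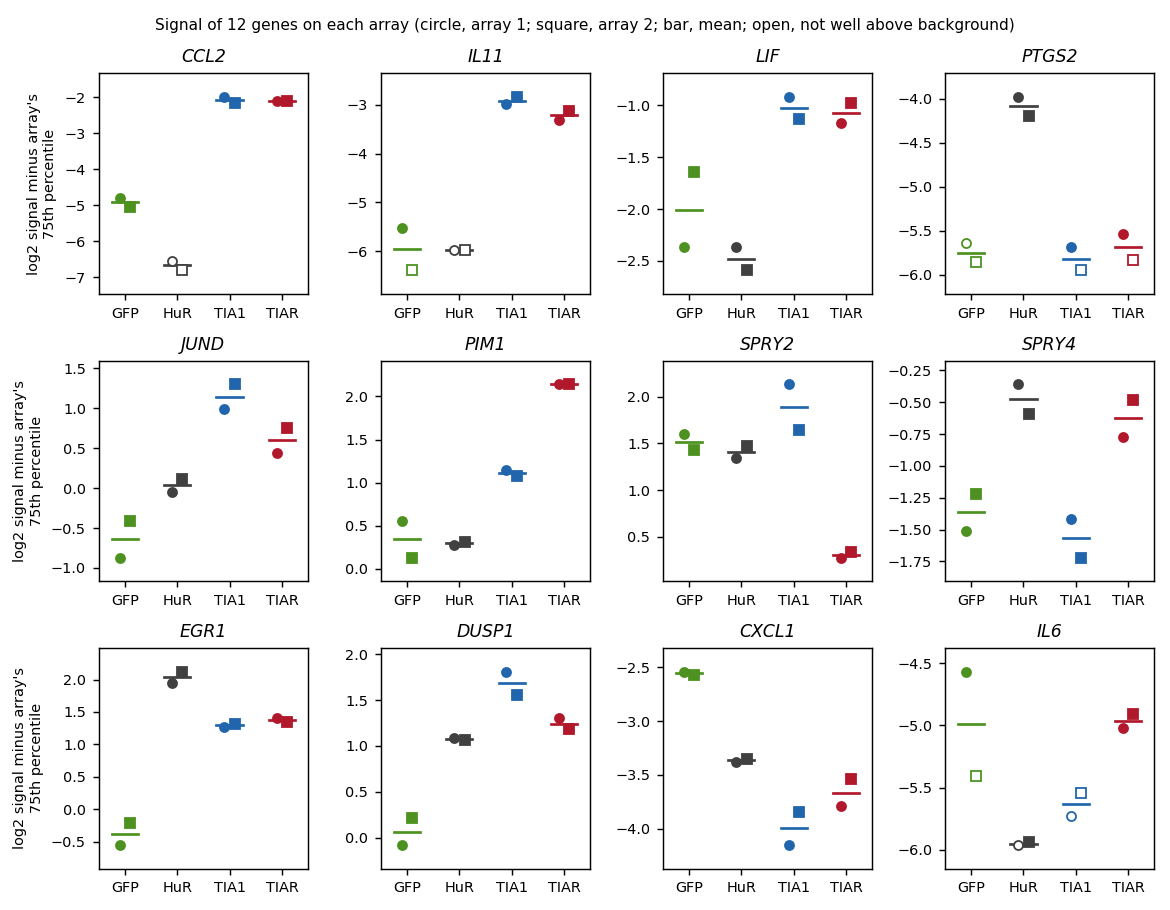
Log2 signal relative to the 75th percentile of each array (vertical axis) of 12 genes in the 4 lines (horizontal axis), with a circle for the first and a square for the second array, a bar for the mean, and open symbols where the probe was not well above background. CCL2, IL11 and LIF are high on the 4 TIA1 and TIAR arrays, PTGS2 is high on the HuR arrays, PIM1 is highest and SPRY2 lowest on the TIAR arrays, and EGR1 and DUSP1 are lowest and CXCL1 highest on the GFP arrays.

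The AP-1 factors, whose dimers bind the TPA response element (TRE), were measured on all arrays. Against HuR, 1 of the 7 was called higher with TIA1 and 0 with TIAR (against 10.2% and 8.62% of all genes). JUND (chromosome 19 from 18391371 to 18391430), an AP-1 member often linked to restraint of growth, read 0.99 and 1.30 with TIA1, 0.44 and 0.76 with TIAR, -0.05 and 0.12 with HuR, and -0.87 and -0.41 with GFP. Its levels did not overlap between any of the lines. JUND was higher with TIA1 than with HuR by 1.11 (standard error 0.15, adjusted p = 0.0089, limma), close to the 2-fold threshold, a call lost without either HuR array and without TIA1 2, and with TIAR by 0.57 (standard error 0.15, adjusted p = 0.058, limma).

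FOSB read -1.08 and -1.04 with TIA1, -1.09 and -0.96 with TIAR, -1.85 and -1.98 with HuR, and -2.70 and -2.22 with GFP. Its differences from HuR, 0.86 with TIA1 (standard error 0.10, adjusted p = 0.0065, limma) and 0.89 with TIAR (standard error 0.11, adjusted p = 0.011, limma), were under 2-fold. JUNB was higher with TIA1 than with HuR by 0.67 (standard error 0.12, adjusted p = 0.016, limma). It read -2.56 and -2.34 with TIA1, -2.81 and -2.50 with TIAR, -3.14 and -3.10 with HuR, and -2.63 and -2.47 with GFP. The HuR arrays were thus lowest for JUNB, and the TIA1 and GFP arrays overlapped. JUN and FOS, the canonical pair, did not pass in either direction at 2-fold: JUN read 3.37 and 3.31 with TIA1, 2.74 and 2.86 with TIAR, 3.19 and 3.17 with HuR, and 2.07 and 2.49 with GFP, and FOS read -0.65 to -0.24 on the 6 HuR, TIA1 and TIAR arrays and -0.81 and -1.60 on the GFP arrays. FOSL1 lay between -2.02 and -1.42 on all arrays. FOSL2 lay between -4.61 and -3.78 on 7 arrays and at -1.60 on GFP 1.

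Of the zinc finger and nuclear receptor factors, none of the 5 tested in either comparison with HuR was called. Of all genes, 15.9% were called in either direction with TIA1 and 12.2% with TIAR. EGR1 (chromosome 5 from 137804891 to 137804950), the classic SRF target of ERK signaling, was highest with HuR, at 1.95 and 2.12, against 1.27 and 1.32 with TIA1, 1.40 and 1.35 with TIAR, and -0.55 and -0.22 with GFP. It fell by 0.74 with TIA1 (standard error 0.11, adjusted p = 0.010, limma) and by 0.66 with TIAR (standard error 0.11, adjusted p = 0.019, limma) against HuR. EGR2 and EGR3, its relatives, were low, at -5.22 to -4.02 and -5.76 to -4.43. KLF4 lay between -2.58 and -1.85 and KLF6 between 2.20 and 2.86 on the 8 arrays. The other 2 KLF6 probes were dim, and 1 of them read -1.44 on GFP 1 and -5.72 to -4.92 elsewhere.

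Among the response proteins and PIM1, the kinase stood out. PIM1 (chromosome 6 from 37143102 to 37143161), a survival kinase whose gene is induced by cytokines through STAT factors, read 2.14 and 2.14 with TIAR, 1.15 and 1.08 with TIA1, 0.28 and 0.31 with HuR, and 0.56 and 0.13 with GFP. TIAR-expressing cells were highest, TIA1-expressing cells intermediate, and the HuR and GFP arrays overlapped. The log2 fold change against HuR was 1.84 with TIAR (standard error 0.09, adjusted p = 0.0037, limma) and 0.82 with TIA1 (standard error 0.09, adjusted p = 0.0062, limma). IER5, a regulator of heat shock factor 1, was higher than with HuR by 0.74 with TIA1 (standard error 0.09, adjusted p = 0.0075, limma) and by 0.46 with TIAR (standard error 0.10, adjusted p = 0.033, limma). It read 3.90 and 3.96 with TIA1, 3.69 and 3.60 with TIAR, 3.20 and 3.17 with HuR, and 3.56 and 3.72 with GFP. The HuR arrays were thus lowest for IER5, and the TIAR and GFP arrays overlapped. IER2 lay between 4.45 and 5.27 on all arrays and IER3 between 1.21 and 1.96, without a call.

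The brakes on ERK signaling did not move as a group. SPRY2 and SPRY4, relatives that block the pathway upstream of ERK, were each called lower than with HuR in a different line. SPRY2 (chromosome 13 from 80910622 to 80910681) read 0.28 and 0.34 with TIAR, against 2.13 and 1.64 with TIA1, 1.34 and 1.47 with HuR, and 1.60 and 1.43 with GFP, so that the TIAR arrays lay below all others. Against HuR it fell by 1.10 on the log2 scale with TIAR (standard error 0.10, adjusted p = 0.0071, limma), and its difference with TIA1 was 0.48 (standard error 0.19, adjusted p = 0.11, limma). SPRY4 (chromosome 5 from 141690571 to 141690630) read -1.42 and -1.72 with TIA1, -0.77 and -0.48 with TIAR, -0.36 and -0.59 with HuR, and -1.51 and -1.22 with GFP. The TIA1 and GFP arrays thus overlapped for SPRY4, and its TIA1 level was low against HuR but not against GFP. It fell by 1.10 with TIA1 against HuR (standard error 0.15, adjusted p = 0.010, limma), and its dimmer second probe changed by -0.48 (standard error 0.22, adjusted p = 0.14, limma). Apart from the methods' t-test, the SPRY4 call was lost under 6 of 14 alternatives, among them the mean of both probes and each HuR array left out.

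The DUSP genes encode phosphatases that switch off MAP kinases. DUSP5 and DUSP6, which act on ERK, were lower with TIA1 than with HuR by 0.62 (standard error 0.11, adjusted p = 0.015, limma) and 0.52 (standard error 0.11, adjusted p = 0.026, limma). DUSP1, which also acts on p38 and JNK, was higher with TIA1 by 0.61 (standard error 0.12, adjusted p = 0.022, limma). With TIAR the 3 differences from HuR were -0.08, -0.14 and 0.16. DUSP4 lay between -0.59 and 0.08 on the 8 arrays. The NF-kB inhibitors NFKBIA and TNFAIP3 lay between 1.59 and 2.35 and between -2.59 and -1.86, with differences from HuR of -0.25 and 0.10 with TIA1 and 0.19 and 0.38 with TIAR, not past the thresholds.

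**Figure D3:**
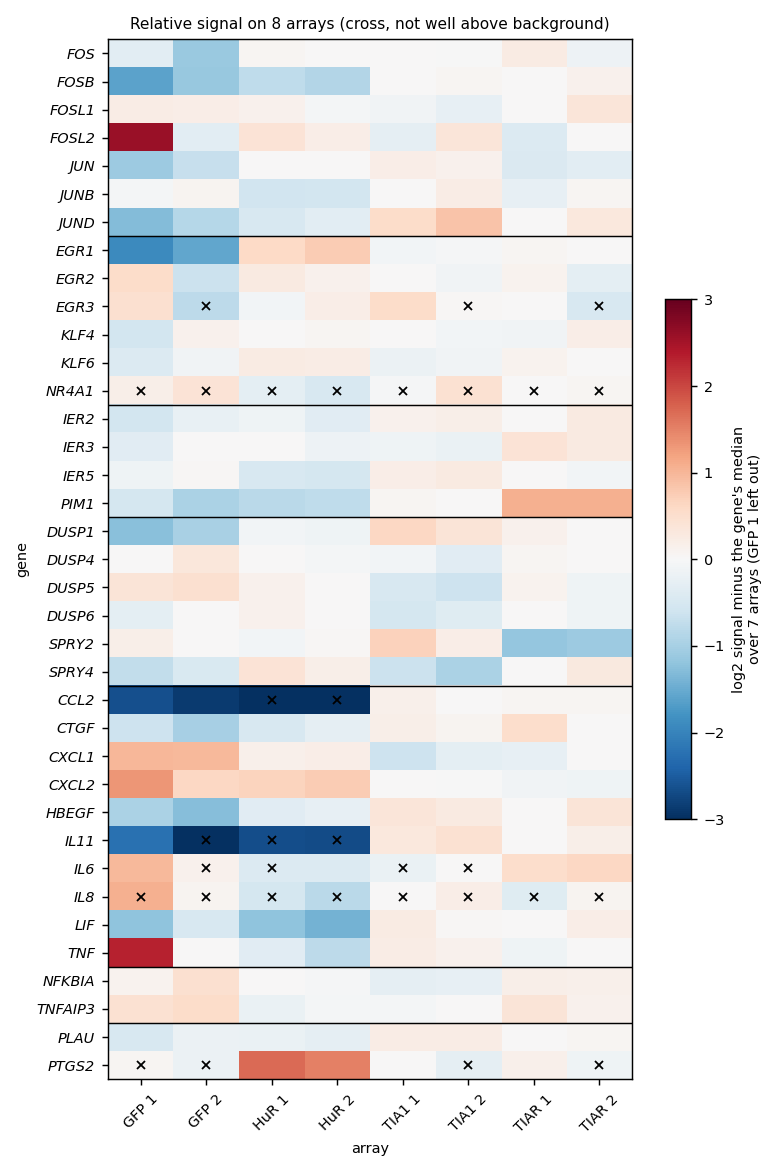
Signal of the 37 genes (rows, grouped by role) on the 8 arrays (columns), as the log2 difference from the gene's median over 7 arrays, GFP 1 being left out of the median. Crosses mark probes not well above background. CCL2, IL11 and LIF are blue on the GFP and HuR arrays, PTGS2 is red on the HuR arrays, and FOSL2 and TNF are red on GFP 1 alone.

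The GFP line carries the tag and the induction without an RNA-binding protein, but its arrays differ from each other, and limma called 0 of the 33, 32 and 33 tested genes for HuR, TIA1 and TIAR against GFP, as it called 0% of all genes in each direction. At an unadjusted p under 0.05 there were 10, 15 and 14 of them (against 21.1%, 25.9% and 20% of all genes), and at the threshold of the methods' t-test 3, 2 and 3 (against 1.99%, 3.34% and 2.36%). The genes were therefore also described by whether both arrays of a line lay outside both GFP arrays with the means at least 2-fold apart, which is no test. By that rule 3 of the 33 genes were higher with HuR (DUSP1, EGR1 and PTGS2, against 3.26% of all genes) and 2 lower (CCL2 and TNF, against 11.7%). With TIA1, 8 of 32 were higher (CCL2, DUSP1, EGR1, FOSB, HBEGF, IL11, JUN and JUND, against 7.33%) and 2 lower (CXCL1 and, by its dimmer probe, CXCL2, against 10.3%). With TIAR, 9 of 33 were higher (CCL2, CTGF, DUSP1, EGR1, FOSB, HBEGF, IL11, JUND and PIM1, against 5.95%) and 3 lower (CXCL1, CXCL2 and SPRY2, against 8.67%). The split between higher and lower genes moved with the scaling. With quantile normalization it was 9 and 0 for HuR, 11 and 1 for TIA1 and 12 and 1 for TIAR (against 22.8%, 24.2% and 21.9% of all genes in either direction). With the authors' log2 values it was 4 and 0, 9 and 0, and 10 and 1 (against 9.49%, 13.2% and 11.8%), and with normexp 2 and 2, 8 and 0, and 8 and 2 (against 12.1%, 10.1% and 8.99%). The 3 comparisons share the GFP arrays, so a gene that is low on both of these appears in all of them.

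EGR1 and DUSP1 were higher than in GFP-expressing cells in all 3 lines. The log2 differences of EGR1 were 2.42 with HuR, 1.68 with TIA1 and 1.76 with TIAR, and those of DUSP1 1.01, 1.62 and 1.17. DUSP1 read -0.08 and 0.21 on the GFP arrays, 1.09 and 1.06 with HuR, 1.81 and 1.56 with TIA1, and 1.30 and 1.18 with TIAR. FOSB, HBEGF, IL11 and JUND were higher in both TIA lines, with log2 differences from GFP of 1.41, 1.42, 3.04 and 1.79 with TIA1 and 1.44, 1.30, 2.74 and 1.24 with TIAR. The size for IL11 is uncertain, since GFP 2 was not well above background. Over the alternative fits it ranged from 1.45 to 3.82 with TIA1 and from 1.15 to 3.54 with TIAR. CCL2 was higher than with GFP by 2.84 with TIA1 and 2.81 with TIAR, and at least 2.15-fold lower with HuR. Under quantile normalization the CCL2 difference between HuR and GFP was -0.17, with the authors' log2 values -0.04.

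Without GFP 1, limma called 5 of the genes for HuR (EGR1, FOS, PTGS2 and, by its dimmer probe, SPRY4 higher and CCL2 lower, against 10.8% of all genes in either direction), 11 for TIA1 (CCL2, CTGF, DUSP1, EGR1, FOS, FOSB, HBEGF, IL11 and JUND higher and CXCL1 and DUSP5 lower, against 14%) and 6 for TIAR (CCL2, EGR1, FOSB, IL11 and PIM1 higher and SPRY2 lower, against 7.98%). The lone GFP array is then assumed to vary like the arrays of the other line. IL11 was not well above background on GFP 2, so that its size is not given. The fitted log2 fold changes were 2.25 for EGR1 with HuR (adjusted p = 0.014, limma) and 2.00 for PIM1 with TIAR (adjusted p = 0.026, limma). TNF, which read -4.57 on GFP 2, was not among the called genes. CXCL1 was lower in both TIA lines in all 15 fits against GFP, by 0.21 to 1.60 on the log2 scale, but for HuR its difference turned from -0.81 to 0.28 with quantile normalization and 0.07 with the authors' log2 values.

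**Figure D4:**
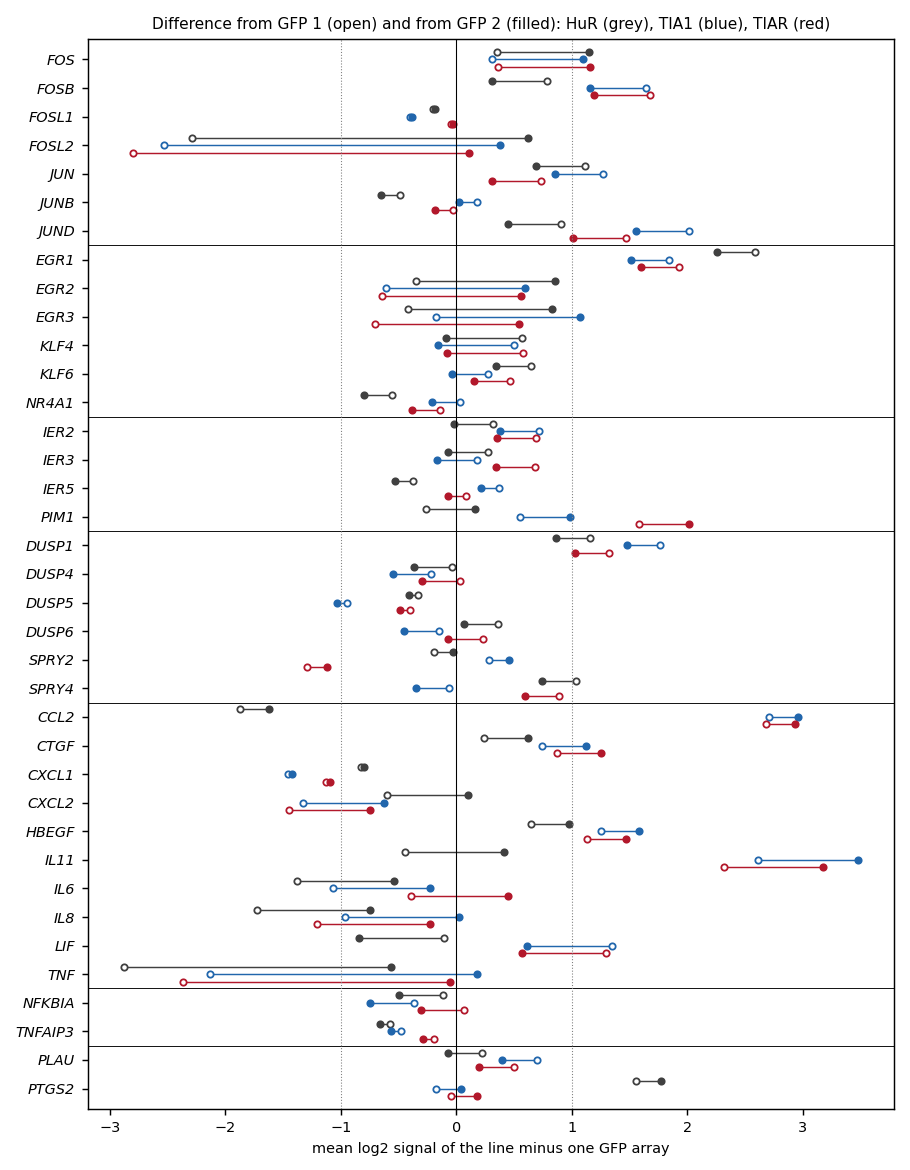
Mean log2 signal of the HuR (grey), TIA1 (blue) and TIAR (red) lines minus GFP 1 (open) and minus GFP 2 (filled), for each of the 37 genes. Where the line joining the circles is long, the difference depends on the GFP array, as for FOSL2 and TNF. CCL2 and IL11 lie more than 2-fold to the right against either GFP array in both TIA lines, and EGR1 in all 3 lines.

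Between the TIA lines, 1 of the 33 tested genes was called higher with TIAR (PIM1, against 1.56% of all genes) and 1 lower (SPRY2, against 1.37%). PIM1 exceeded its TIA1 level by a log2 difference of 1.02 (standard error 0.11, adjusted p = 0.032, limma) and SPRY2 lower, at -1.58 (standard error 0.20, adjusted p = 0.038, limma), with no overlap between the arrays of the lines. Neither call was made with the replicate number as a block (0 of 33) or without any one of the 4 arrays. CCL2, IL11 and LIF differed between TIAR and TIA1 by -0.02 (standard error 0.12), -0.30 (standard error 0.13) and -0.05 (standard error 0.14) on the log2 scale and were not called (adjusted p = 0.92, 0.27 and 0.86, limma), and PTGS2 was not tested there because neither line had it well above background on both arrays.

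The ligands and enzymes among these genes were set beside their receptors and partners, a list of 28 genes of which 21 were tested. With TIA1 6 were called higher (ERBB2, ERBB3, IL11RA, PLAUR, PTGER3 and SOCS3, against 10.2% of all genes) and 0 lower, and with TIAR 7 (ERBB2, ERBB3, IL11RA, PLAUR, PTGER4, SERPINE2 and SOCS3, against 8.62%) and 0, while the median log2 fold change of the list was -0.04 and 0.12. Over this and the following lists, 20 of the 47 calls were made under all 5 scalings, that is, the 75th percentile over spots or over probes, normexp, quantile normalization and the authors' log2 values. Among the receptors, IL11RA and PLAUR were called under all 5 in both comparisons, whereas PTGER3 was called under 1 with TIA1, and ERBB2 with TIAR ranged from 0.37 to 1.37. IL11RA, the IL-11 receptor, which was singled out after its values were seen, read 0.13 and 0.30 with TIA1, -0.21 and 0.28 with TIAR, -1.19 and -1.24 with HuR, and -0.87 and -0.79 with GFP, a log2 fold change against HuR of 1.44 and 1.25 (adjusted p = 0.0032 and 0.017, limma). SOCS3, the feedback inhibitor that gp130 signaling induces, read -2.29 and -2.46 with TIA1, -2.61 and -2.79 with TIAR, -4.28 and -4.25 with HuR, and -3.27 and -3.62 with GFP, a log2 fold change of 1.89 and 1.57 (adjusted p = 0.0023 and 0.0051, limma), and at its lowest over the scalings 1.07 and 0.67. PLAUR, the receptor of the PLAU protease, was higher than with HuR by 1.76 and 1.33, and ERBB3 by 1.09 and 1.96. PLAUR and ERBB2 were brightest on GFP 1, at -0.06 and 0.93. Of the 33 other cytokines and chemokines, 20 were tested, and 4 were called higher and 0 lower with each TIA protein. These were PTX3 (1.44 and 1.07), the gp130 ligands OSM (2.00 and 1.04) and CLCF1 (1.70 and 1.15), CCL4 with TIA1 (1.38) and IL18 with TIAR (1.89). The values are differences from HuR. PTX3 and CLCF1 overlapped the GFP arrays with TIAR and lay above them with TIA1. CCL4 was brightest on GFP 1, at -2.51, against -4.07 and -3.66 with TIA1. OSM with both TIA proteins and IL18 with TIAR lay above both GFP arrays. Over the 5 scalings OSM ranged from 0.53 to 2.00 with TIA1 and from -0.01, with the authors' log2 values, to 1.04 with TIAR, and CLCF1 from 0.85 to 1.70 and from 0.25 to 1.15.

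Other lists around these genes held calls in both directions, where 10.2% of all genes were called higher and 5.79% lower with TIA1 and 8.62% and 3.66% with TIAR. Among 37 other immediate early genes, 35 tested, 4 were called higher and 2 lower with TIA1 and 3 and 1 with TIAR. ZFP36, which encodes the AU-rich element binding protein tristetraprolin that promotes mRNA decay, rose by 1.25 and 1.42 (adjusted p = 0.0042 and 0.0055, limma), and the pseudokinase gene TRIB1 fell by 1.06 and 1.22. Of 24 further ERK feedback and ETS genes, 22 tested, 1 was called higher (SPRED3, 1.44) and 2 lower with TIA1. The lower were ETV4 and ETV5, which ERK activity keeps on, at -1.38 and -1.11, with ETV5 called under 3 of the 5 scalings. With TIAR the counts were 0 and 1. Of 27 further NF-kB pathway genes, 24 tested, TNFAIP2 was higher than with HuR with both (2.07 and 1.76, and at its lowest over the scalings 1.03 and 0.61). TNFAIP2 was brightest on GFP 1, at -0.75. TRAF1, a signaling adaptor, was called lower with TIAR (adjusted p = 0.026, limma), but its log2 fold change ranged from -1.39 to -0.06 over the scalings and it was called under 3 of the 5. Of 21 SRF and YAP targets around CTGF, 17 tested, 4 were called higher and 2 lower with TIA1 and 2 and 1 with TIAR. On the processed signals WWTR1 was at least 2.17-fold and 2.26-fold higher than with HuR, called under 3 of the 5 scalings in each comparison. WWTR1 was brightest on GFP 1, at -4.38. ACTA2 was lower, at -1.85 and -1.65.

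The leukocyte markers on the array, taken as a sum and not each by itself, were higher with TIA1 and TIAR than with HuR, as CCL2 was. Their summed signal, relative to the 75th percentile, was 2.00 to 2.16 on the 4 TIA arrays, 0.87 and 1.00 on the HuR arrays, and 3.27 and 0.89 on GFP 1 and GFP 2, and of 7 genes 4 to 6 were well above background on the TIA arrays and 4 on the HuR arrays. Most of the sum came from CD14, at -0.40 to 0.19 on the TIA arrays and -1.02 and -0.89 on the HuR arrays, and from CD68. The brightest probe of PTPRC, which defines leukocytes, was well above background on all 8 arrays. It read -4.50 to -4.25 on the TIA arrays, -4.66 and -3.94 on the HuR arrays, and 1.12 and -4.15 on GFP 1 and GFP 2. The other PTPRC probes were well above background on 0 to 3 arrays, CD3E on 2, and CSF1R on GFP 1 only. The sums of the endothelial markers lay between 0.0969 and 0.241 and those of the fibroblast markers between 0.258 and 2.78. The part of these markers in the cytokine differences was not tested.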

How the data were processed

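RNA of 4 FT293 lines, 2 arrays each, was hybridized to a human Agilent array (design 039494), and the deposited scanner files hold the intensity of each spot after the background subtraction of Feature Extraction 10.7.3.1, on hg19. The label text names a rat array, whereas the file headers and probes are of the human one. The authors also deposited log2 values that were quantile-normalized, the TIAR arrays apart from the other 6; limma is named in the submitters' processing notes, and the background correction is not given in the sources used here. The processed intensities were put on the log2 scale, and the 75th percentile of all non-control spots of the array was subtracted. After removal of outlier spots, a probe's spots were averaged. A probe counted as well above background where at least 0.5 of its spots did. Pairs of lines were fitted with limma 3.58.1 in R 4.3.3 on their 4 arrays, with Benjamini-Hochberg adjustment over all tested probes. The code was checked on simulated data. A gene was called where any of its probes passed, and all 37 genes were named. Of the further lists the called genes were named in part, and not always those with the largest change. The members and all lists were chosen with earlier results of these data known. Alternatives covered background correction, normalization, filters, weights for arrays, a block for the replicate number, the methods' t-test and each array left out.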

Additional observations from a re-analysis of the deposited data

Results flagged for a closer look

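PIM1 and SPRY2 differed between TIAR- and TIA1-expressing cells by the test of that difference itself. Their log2 fold changes were 1.02 and -1.58 (adjusted p = 0.032 and 0.038, limma), with no overlap between the 2 arrays of each line. Both calls were lost when any one of the 4 arrays was left out.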

How the results depend on the processing

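Of 190 alternative fits of the 14 called changes, 151 kept direction and call, 39 kept direction without the call and 0 reversed. The methods' t-test, after whose adjustment no call was left, is not among these fits. The count for TIA1 versus HuR, 6, was 3 among probes well above background on all arrays and 0 after adjustment of the methods' t-test, and 4 to 6 with one array left out. The count for TIAR versus HuR, 6, was 3 with the authors' log2 values, 3 among probes well above background on all arrays, 0 after adjustment of the t-test, and 0 to 7 with one array left out, with 0 without HuR 1 and 3 without HuR 2. For HuR, TIA1 and TIAR versus GFP, 0 calls became 4, 9 and 12 with all 8 arrays in one fit (against 5.04%, 11.2% and 7.49% of all genes), 1, 5 and 3 with array weights (0.37%, 3.08% and 0.671%), 3, 2 and 3 at the threshold of the t-test, and 0 to 13, 0 to 16 and 0 to 16 with one array left out. The highest of these were made without GFP 2, where 53.5%, 51.5% and 48.1% of all genes were called, so that they say little of these genes. The 2 calls for TIAR versus TIA1 were 1 with normexp, 1 with all 8 arrays in one fit, 0 without a filter, 0 after adjustment of the t-test and 0 to 0 with one array left out. The genes lying apart from GFP with HuR, 5, were 9 with quantile normalization, 3 among probes well above background on all arrays, and 5 to 13 with one GFP array left out, and those with TIA1, 10, were 11 to 16, against 56% and 57.1% of all genes without GFP 2. These counts of genes lying apart were recomputed by choices made after seeing the data. The cause of these changes was not tested. With the replicate number as a block, 6, 6, 0, 0, 0 and 0 genes were called in the 6 comparisons. Deviations of arrays with the same number correlated at -0.09 to 0.18, and the number was not taken as a pairing. With 2 arrays a line, small changes and those of dim probes could not be resolved.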
